A study of Homo sapiens with 12 samples.

Results

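Kallikrein-related peptidases are secreted serine proteases encoded by a tight gene cluster on the long arm of chromosome 19. The 10 genes KLK5 to KLK14 were chosen by symbol from the table of gene counts, which lists 61044 gene IDs. RNA was measured in SCC-15, an established human cell line from an oral squamous cell carcinoma, harvested after 48 hours. The question was how depletion of FMOD, the gene of the matrix proteoglycan fibromodulin, alters the transcriptome of these cells. The 4 groups are SCC-15 cells with a negative-control short hairpin RNA (NC) and SCC-15 cells with an FMOD hairpin, named shRNA1, shRNA2 or shRNA3, with 3 libraries in each group and 12 in all. All groups share the cell line, the culture and the harvest time. The vector, and whether a hairpin line is 1 clone, are not given in the sources used here. Nothing in the labels says that the libraries of a group came from separate cultures, so p-values measure only the spread between these libraries, which may be technical.

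Tissue kallikreins of this cluster are made as inactive proenzymes and are switched on when another protease cuts off a short propeptide. In the epidermis and the oral lining they work as a cascade: KLK5 activates itself and other members, KLK7 and KLK14 among them, and the active enzymes cut the adhesion proteins that hold squamous cells together. The inhibitor LEKTI, the product of SPINK5, holds this cascade in check. Several members can also cut protease-activated receptors at the cell surface, and many are regulated by steroid hormones and are used as markers in carcinomas.

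The library totals lay between 17287017 and 19567289 estimated counts. FMOD was at the limit of detection, with 2 or 3 counts in each NC library and 0 counts in all 9 shRNA libraries, so the depletion could hardly be measured here. A large part of the transcriptome differed between the groups: 57.4%, 53.0% and 53.9% of 17532 tested genes passed the test for shRNA1, shRNA2 and shRNA3 against NC. The shRNA3 libraries 1 and 2 stood apart from library 3. Over tested genes, log2(CPM + 0.5) correlated at 0.993 between libraries 1 and 2 and at 0.918 and 0.914 between each of them and library 3, against 0.982 to 0.994 within the other groups. Results for shRNA3 are therefore given with and without libraries 1 and 2 where that matters. Without both, shRNA3 is 1 library, which the fit assumes to vary like those of the other groups, so such a p-value is no check between shRNA3 libraries. The 9 squamous epithelial markers examined were all detected in every group, with a summed level of 2607 to 2790 CPM in NC and 2286 to 3249 CPM in the shRNA libraries. Among them, KRT5 was lower with every hairpin (1008 CPM in NC against 21.4, 80.1 and 74.8 CPM), as was CDH1 (322 CPM against 38.2, 53.4 and 66.0 CPM), while KRT14, KRT6A, KRT17 and DSP were higher. TP63 was lower with shRNA2 and shRNA3 (164 CPM in NC against 83.0 and 80.5 CPM), and EPCAM was higher with both (187 CPM against 271 and 356 CPM). Markers of other cells were low or ambiguous. Of the 4 leukocyte markers, PTPRC, CD3E and LYZ did not exceed 9 counts in any library, and CD68 made up nearly all of the sum (53.9 to 72.2 CPM in NC, 44.0 to 235 CPM in the shRNA libraries). The 5 fibroblast markers summed to 56.0 to 58.0 CPM in NC, 15.5 to 21.0 with shRNA1, 44.1 to 48.2 with shRNA2 and 32.6 to 86.5 with shRNA3, mostly COL1A1, and of these PDGFRB (10.7 CPM in NC against 0.765, 1.10 and 0.727 CPM) and COL1A2 fell with every hairpin. The 3 endothelial markers summed to 17.6 to 23.1 CPM in NC, 3.88 to 5.88 with shRNA1, 6.86 to 8.45 with shRNA2 and 8.67 to 13.2 with shRNA3. Within that sum CDH5 (17.3 CPM in NC against 1.94, 2.53 and 1.35 CPM) and VWF fell with every hairpin, whereas PECAM1 rose with every hairpin (0.133 CPM against 2.60, 4.75 and 8.73 CPM). COL1A2 was at most 0.206 CPM in the shRNA libraries and PECAM1 at most 0.197 CPM in NC, both under the 0.556 CPM of the filter on low counts. COL1A2 thus entered the test through NC alone, as a fall only, and PECAM1 through the shRNA libraries alone, as a rise only. The part of these markers in the results below was not tested, and fewer cells of a type and less RNA per cell cannot be told apart in bulk RNA.

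The cluster from KLK5 to KLK14 spans chr19:50943303-51084245 (GRCh38, GENCODE 29), or 140.943 kb, with all 10 genes on the minus strand. Promoter sequences are shown for 3 neighbouring members because their transcripts moved differently: KLK5 and KLK7 fell with every hairpin, while KLK6, which lies between them, was not called lower with any. Each is the 250 bases before the first RefSeq start listed for the gene, on the minus strand of GRCh38.p14. The bases are written 5′ to 3′, with matches to the searched motifs in capitals. RefSeq lists 1 start each for KLK5 and KLK6 but 3 for KLK7. All 3 windows reach into their genes as GENCODE 29 places them, with 5′ ends at 50953093 (KLK5), 50969673 (KLK6) and 50984099 (KLK7).
KLK5 (chr19:50953039-50953288): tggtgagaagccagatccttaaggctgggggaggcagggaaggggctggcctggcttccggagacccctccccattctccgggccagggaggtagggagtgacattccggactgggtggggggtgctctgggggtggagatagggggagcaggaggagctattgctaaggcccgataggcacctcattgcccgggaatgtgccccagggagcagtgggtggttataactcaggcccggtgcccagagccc
KLK6 (chr19:50969592-50969841): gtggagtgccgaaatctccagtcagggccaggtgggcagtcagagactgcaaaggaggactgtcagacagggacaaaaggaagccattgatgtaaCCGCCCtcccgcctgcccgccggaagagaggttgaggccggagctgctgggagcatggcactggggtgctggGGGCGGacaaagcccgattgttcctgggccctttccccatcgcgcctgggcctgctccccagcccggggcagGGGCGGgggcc
KLK7 (chr19:50983918-50984167): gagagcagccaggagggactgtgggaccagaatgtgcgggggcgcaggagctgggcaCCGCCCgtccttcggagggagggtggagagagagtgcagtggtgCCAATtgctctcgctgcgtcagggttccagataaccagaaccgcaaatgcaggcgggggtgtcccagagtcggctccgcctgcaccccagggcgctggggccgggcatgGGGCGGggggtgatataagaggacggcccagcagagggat

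The motifs searched, on both strands, were TATAAA (the core promoter element bound by TBP), TGANTCA (the AP-1 site), GGGCGG (the GC box), CCAAT (the NF-Y site), AACCGG (a grainyhead core) and the palindromic glucocorticoid response element. No match was found in the KLK5 window. The KLK6 window holds 3 GC boxes, and the KLK7 window holds 2 GC boxes and 1 CCAAT, none of them overlapping. Of 27305 promoters of the same length in the RefSeq table, 42.3% hold GGGCGG, 33.0% CCAAT, 11.1% TATAAA, 6.60% TGANTCA, 5.95% AACCGG and 0.330% the glucocorticoid response element. The table matched 9 of the 10 members, the exception being KLK8. Among the other 6 windows, GC boxes were found for KLK9 (1), KLK13 (2, overlapping each other, with 1 CCAAT) and KLK14 (2), and no match for KLK10, KLK11 or KLK12. KLK10, KLK11 and KLK13 have 2 listed starts each and KLK14 has 3, of which only the first was searched. GC content was 64.8% for KLK5, 66.8% for KLK6 and 67.2% for KLK7, against a median of 58.0% over all promoters, and the windows hold 6, 12 and 15 CpG sites against a median of 11. A match is a run of letters and not a shown binding site, and no match says only that those letters are not in the window.

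In control cells the family was dominated by KLK5. Levels are given in CPM, the count relative to the TMM-scaled library total, as mean ± SD over n = 3 libraries, and are compared between genes per kilobase of exon. In NC, KLK5 stood at 57.0 CPM per kb, KLK8 at 6.64, KLK6 at 1.45, KLK10 at 1.33, KLK11 at 1.08 and KLK7 at 0.824 CPM per kb. KLK9 at 0.339, KLK14 at 0.168 and KLK13 at 0.133 CPM per kb followed, and KLK12 had no counts. In this order KLK5 and KLK8 were separated from their neighbours in every NC library, whereas the ranges of KLK6 and KLK10, of KLK10 and KLK11, of KLK7 and KLK9, of KLK9 and KLK14, and of KLK14 and KLK13 overlapped. With the hairpins the order changed, and KLK6 had the highest mean level in all 3 groups, at 1.09 (shRNA1), 3.36 (shRNA2) and 3.42 CPM per kb (shRNA3). With shRNA3 the libraries of KLK6 overlapped those of KLK8, the next in order at 1.96 CPM per kb.

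**Figure D1:**
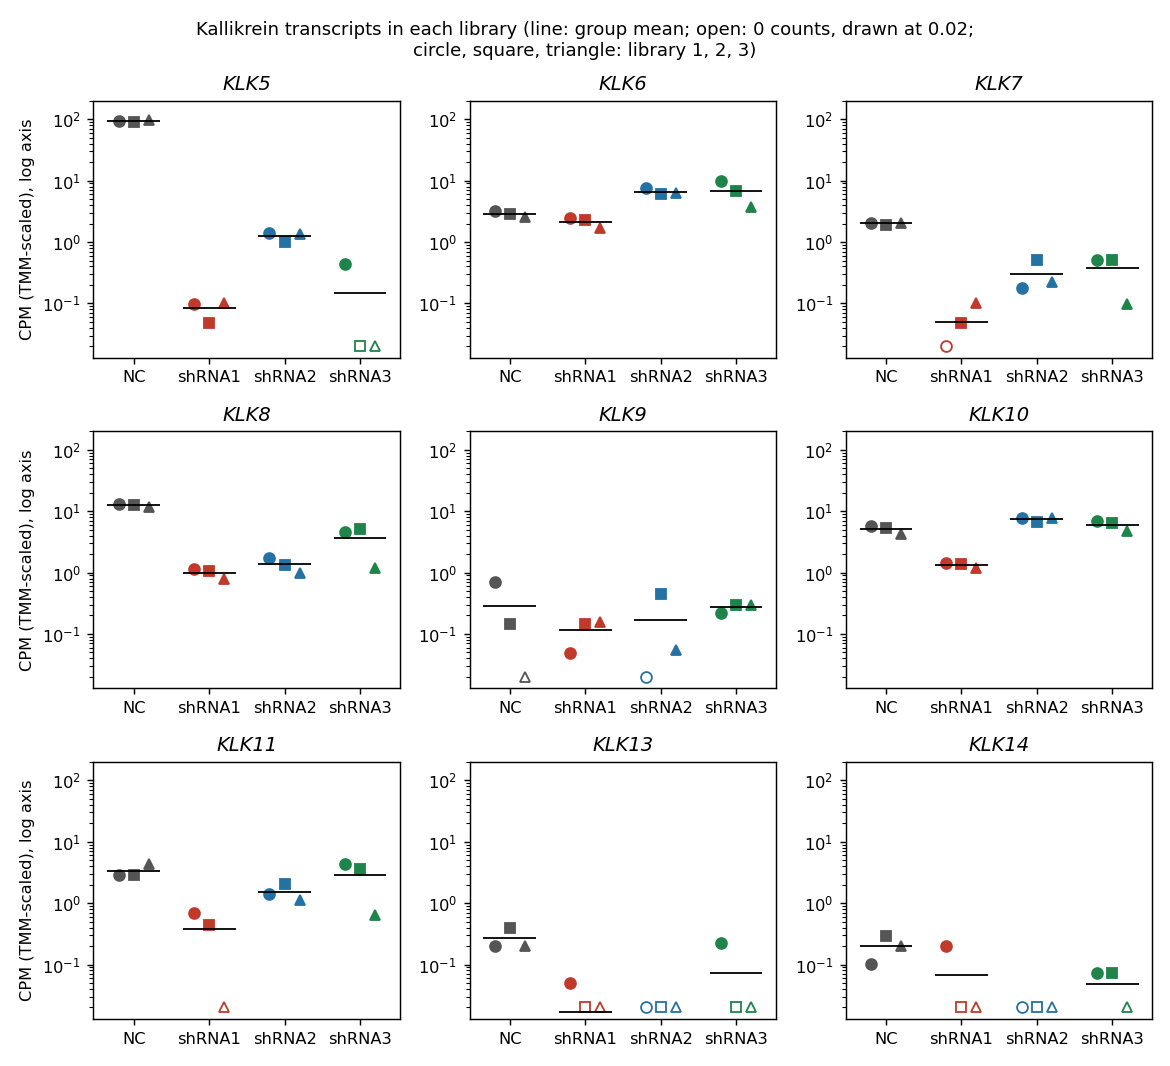
Level of the 9 detected kallikreins in each of the 12 libraries, in TMM-scaled CPM on a log axis, with the group mean as a line and libraries with 0 counts as open symbols at 0.02. KLK5, KLK7 and KLK8 are lower in every shRNA library than in every NC library, while KLK6 is higher in every shRNA2 and shRNA3 library.

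Summed over the 10 genes, the kallikrein transcripts made up 121, 118 and 124 CPM in the NC libraries. The sums were 6.11, 5.47 and 4.02 CPM with shRNA1, 20.2, 18.1 and 17.7 CPM with shRNA2, and 27.1, 22.9 and 10.7 CPM with shRNA3. Every shRNA library was thus below every NC library, and the shRNA1 libraries were below all others. KLK5 held 77.0% to 79.5% of the sum in NC, but 0.885% to 2.56% with shRNA1, 5.59% to 7.50% with shRNA2 and at most 1.64% with shRNA3. Without KLK5 the sum was 26.5 ± 1.21 CPM in NC, 5.12 ± 1.08 with shRNA1, 17.4 ± 1.23 with shRNA2 and 20.1 ± 8.37 with shRNA3. The largest shares in the shRNA libraries were those of KLK6 (29.8% to 42.5%) and KLK10 (23.6% to 44.2%). These shares are not corrected for exon length. Per kilobase KLK8 was above KLK10 with shRNA1 (0.533 against 0.349 CPM per kb). With shRNA3 its mean was also higher (1.96 against 1.56 CPM per kb), but the libraries overlapped.

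**Figure D2:**
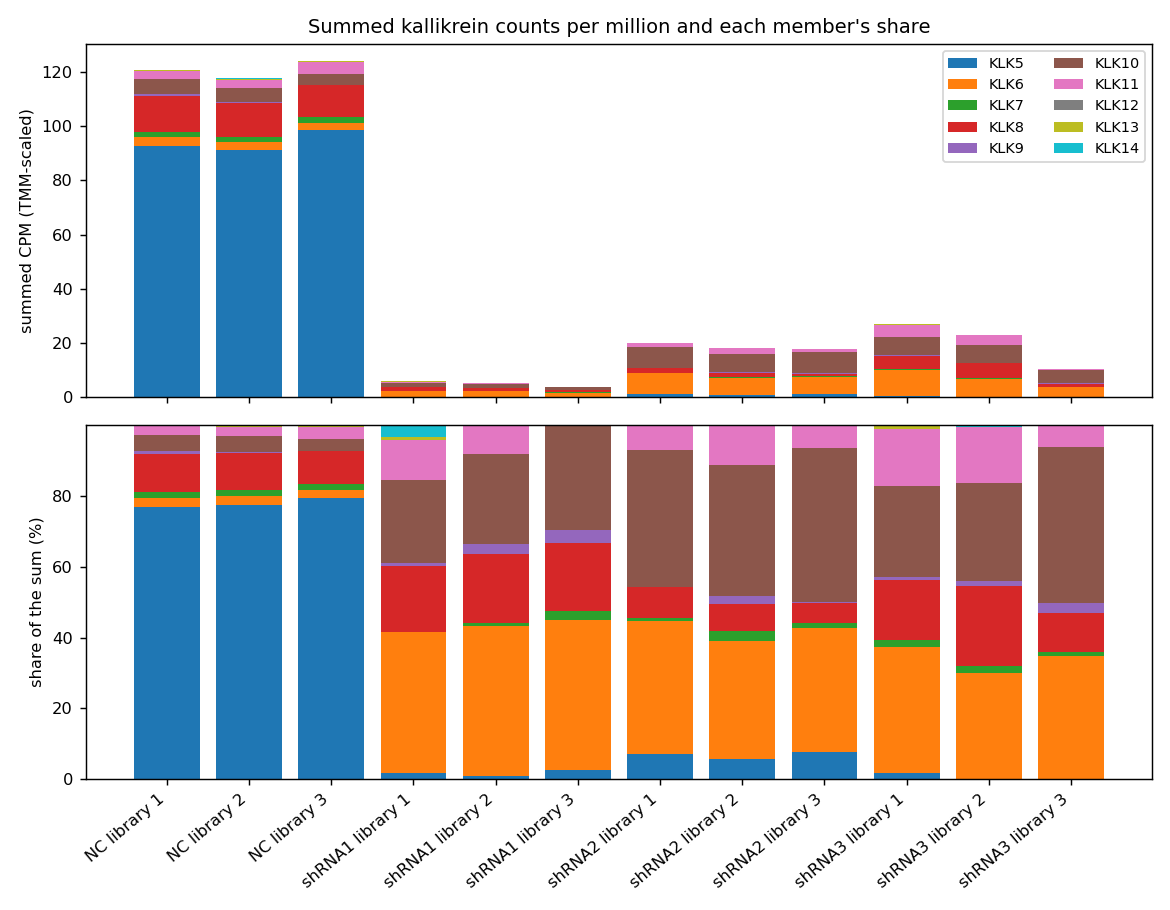
Summed kallikrein level per library in TMM-scaled CPM (top) and the share of each member in percent (bottom). KLK5 fills 77.0% to 79.5% of the bar in NC, and KLK6 and KLK10 have the largest shares in the shRNA libraries. Shares are not corrected for exon length.

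Of the 10 members, 6 passed the filter on low counts and were tested: KLK5, KLK6, KLK7, KLK8, KLK10 and KLK11. The other 4, KLK9, KLK12, KLK13 and KLK14, did not. KLK6, KLK8 and KLK10 were above the filter's level of 0.556 CPM in all 12 libraries. KLK7 reached it in the NC libraries only and so entered the test through the group where it is high, KLK5 reached it in 6 libraries, and KLK11 in 10. The counts of members below describe these 6 genes and not the whole family.

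With shRNA1, 5 of the 6 tested kallikreins fell (KLK5, KLK7, KLK8, KLK10 and KLK11) and KLK6 was not called. Beside these, 30.6% of all tested genes fell and 26.8% rose with shRNA1. With shRNA2, KLK5, KLK7 and KLK8 fell, KLK6 rose, and KLK10 and KLK11 were not called. With shRNA3 the calls were again lower for KLK5, KLK7 and KLK8, higher for KLK6, and none for KLK10 and KLK11. Over all tested genes, 28.4% fell and 24.6% rose with shRNA2, and 27.6% fell and 26.4% rose with shRNA3. The median log2 fold change of the 6 members was -3.38, -1.93 and -1.01 for shRNA1, shRNA2 and shRNA3, against -0.02, -0.05 and -0.03 over all tested genes. KLK7, which reached the filter's level in NC alone, could enter these counts and medians as a fall only. Without KLK7 the median is the value of KLK11, at -3.12, -1.15 and -0.24 for shRNA1, shRNA2 and shRNA3. In 6, 6 and 4 of the 6 members, respectively, the shRNA libraries did not overlap the NC libraries, while 74.3%, 79.6% and 57.5% of all tested genes did not. The 3 comparisons share the NC libraries, so their calls are not independent of each other. The deposited counts were tested in edgeR's quasi-likelihood fit, and an adjusted p is a Benjamini-Hochberg value over all 17532 tested genes, with 0.05 as the threshold.

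**Figure D3:**
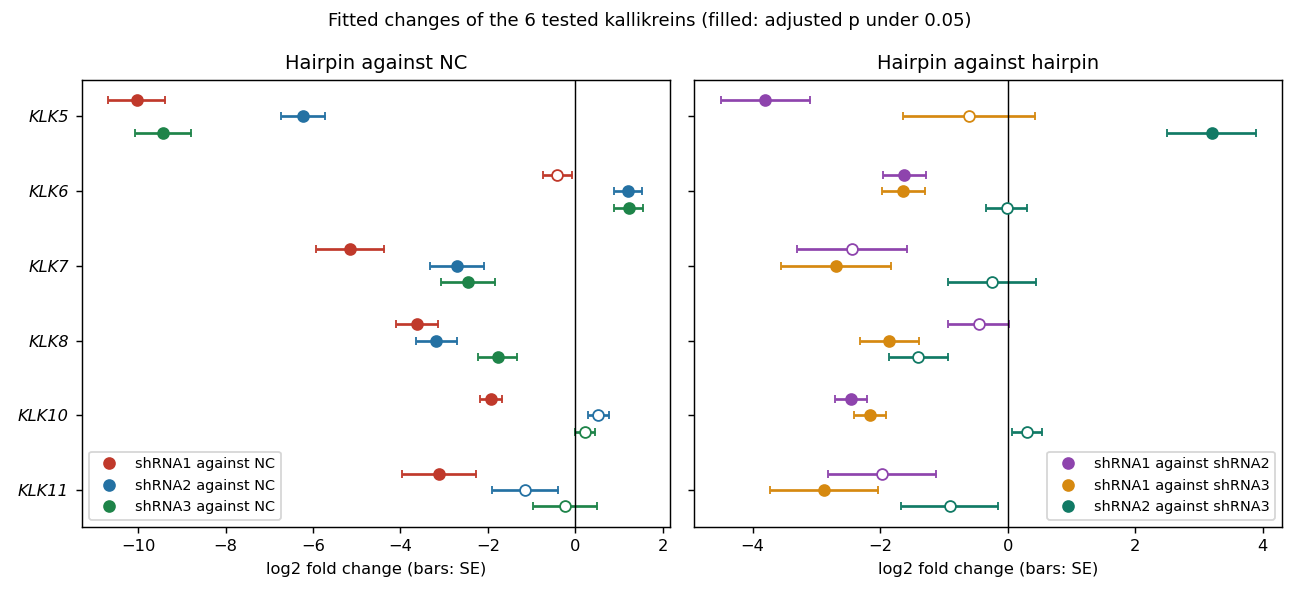
Fitted log2 fold changes of the 6 tested kallikreins with their standard errors, for each hairpin against NC (left) and between hairpins (right), filled where the adjusted p is under 0.05. KLK5, KLK7 and KLK8 lie below 0 for all 3 hairpins, while KLK6 and KLK10 lie on different sides of 0 for shRNA1 and shRNA2.

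KLK5 (ENSG00000167754, chr19:50943303-50953093), the trypsin-like protease that starts the cascade, had the largest fall. Its level was 92.8, 91.4 and 98.7 CPM in the NC libraries. It was 0.0994, 0.0484 and 0.103 CPM with shRNA1, 1.40, 1.01 and 1.33 CPM with shRNA2, and 0.445, 0 and 0 CPM with shRNA3. The shRNA libraries were all far below the NC libraries, and with shRNA3 library 1 alone held KLK5 counts. The NC group held 5644 KLK5 counts in all, against 5 with shRNA1, 66 with shRNA2 and 6 with shRNA3. Corrected for library size, KLK5 was 1134-fold lower with shRNA1 (exact 95% counting interval 486 to 3495), 75.6-fold lower with shRNA2 (59.3 to 97.9) and 744-fold lower with shRNA3 (342 to 2029). All 6 shRNA3 counts were in library 1, and without it KLK5 was at least 1065-fold lower (against a floor of 3 counts over the 2 libraries left), or at least 633-fold lower in library 3 alone. Such intervals hold for counting error alone and leave out the spread between libraries. Whether PCR copies of a molecule were counted as separate reads is not given in the sources used here. On the log2 scale the fitted changes were -10.03 (SE 0.65), -6.23 (SE 0.50) and -9.43 (SE 0.64), with edgeR adjusted p = 5.36e-07, 2.24e-06 and 7.23e-07. The antisense gene AC011483.2 overlaps KLK5, and since the sources used here do not say whether reads were counted by strand, its reads cannot be told apart from those of KLK5.

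KLK7 (ENSG00000169035, chr19:50976482-50984099), the chymotrypsin-like protease that KLK5 activates and that cuts corneodesmosomal adhesion proteins, fell with every hairpin from a low level. It stood at 2.02, 1.92 and 2.08 CPM in NC. With shRNA1 it was 0, 0.0484 and 0.103 CPM, with shRNA2 0.175, 0.507 and 0.221 CPM, and with shRNA3 0.519, 0.510 and 0.0992 CPM. Even the highest shRNA library was below the lowest NC library. The NC libraries held 120 KLK7 counts, against 3 with shRNA1 and 16 each with shRNA2 and shRNA3. KLK7 was 40.2-fold lower with shRNA1 (counting interval 13.4 to 198), 6.63-fold lower with shRNA2 (3.92 to 12) and 5.94-fold lower with shRNA3 (3.51 to 10.7). The edgeR adjusted p values were 1.84e-04, 0.00344 and 0.00602. The log2 change of KLK7 with shRNA3 was -4.22 without shRNA3 libraries 1 and 2, in place of -2.46. KLK7 shares its stretch with the antisense gene AC011483.1, which also overlaps KLK6, KLK8 and KLK9.

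KLK8 (ENSG00000129455, chr19:50996007-51002711), neuropsin, a trypsin-like protease of keratinocytes and of the brain, was the second most abundant member in NC at 13, 12.4 and 11.7 CPM. It fell to 1.14, 1.06 and 0.773 CPM with shRNA1 and to 1.75, 1.35 and 0.996 CPM with shRNA2. With shRNA3 it was 4.59, 5.17 and 1.19 CPM. Libraries 1 and 2 of shRNA3 were thus high among the shRNA libraries and library 3 was like those of shRNA2, but all were below NC. The fall was 12.4-fold with shRNA1 (log2 -3.63, SE 0.48, edgeR adjusted p = 7.77e-05), 9.03-fold with shRNA2 (log2 -3.17, SE 0.47, adjusted p = 1.83e-04) and 3.42-fold with shRNA3 (log2 -1.77, SE 0.44, adjusted p = 0.00529). The last value was -3.34 on the log2 scale without shRNA3 libraries 1 and 2. KLK8 and KLK9 both overlap a readthrough gene, AC011473.4 (ENSG00000269741, chr19:50996018-51009581), and the counts of KLK8 were not whole numbers in 10 of 12 libraries, as were those of the readthrough gene. How the submitters divided reads between these genes is not given in the sources used here, so the KLK8 and KLK9 values are uncertain by that much. The readthrough gene itself had 68 counts in NC and 14, 32 and 22 with shRNA1, shRNA2 and shRNA3.

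KLK6 (ENSG00000167755, chr19:50958631-50969673), neurosin, a trypsin-like protease known from the brain and from carcinomas, lies between KLK5 and KLK7 and did not follow them. Its level was 3.18, 2.85 and 2.58 CPM in NC and 2.44, 2.32 and 1.70 CPM with shRNA1. With shRNA2 it was 7.60, 6.08 and 6.25 CPM, and with shRNA3 9.71, 6.84 and 3.72 CPM. All shRNA2 and shRNA3 libraries were above all NC libraries, and all shRNA1 libraries were slightly below them. KLK6 rose 2.31-fold with shRNA2 (log2 1.21, SE 0.33, edgeR adjusted p = 0.00906) and 2.34-fold with shRNA3 (log2 1.23, SE 0.33, adjusted p = 0.00837). Without shRNA3 libraries 1 and 2 the shRNA3 value was 0.40 on the log2 scale with an edgeR adjusted p of 0.267 from the 1 library left, while leaving out library 1 or library 2 alone kept the call (adjusted p = 0.0319 and 0.0166). With shRNA1 the fitted change was -0.41 (SE 0.33, edgeR adjusted p = 0.310), which did not pass. KLK6 shares its stretch with 3 other genes of the annotation (AC011483.1, AC011483.2 and AC011483.3).

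KLK10 (ENSG00000129451, chr19:51012739-51020175), a member described as lost in some carcinomas and found in normal epithelium, was called with shRNA1 alone, where it fell. Its level was 5.70, 5.41 and 4.31 CPM in NC and 1.44, 1.40 and 1.19 CPM with shRNA1. With shRNA2 it was 7.84, 6.70 and 7.75 CPM, and with shRNA3 6.96, 6.41 and 4.71 CPM. The shRNA1 libraries lay below all others, the shRNA2 libraries lay above all NC libraries, and those of shRNA3 overlapped NC. The fall with shRNA1 was 3.81-fold (log2 -1.93, SE 0.25, edgeR adjusted p = 5.92e-05). The values for shRNA2 (log2 0.53, SE 0.23, edgeR adjusted p = 0.0751) and shRNA3 (log2 0.23, SE 0.23, adjusted p = 0.434) did not pass, and the latter was -0.14 when counts were scaled by library totals only and -0.09 without shRNA3 libraries 1 and 2. Without those libraries the shRNA2 value passed (log2 0.55, edgeR adjusted p = 0.0196). The antisense gene AC011473.2 overlaps KLK10. The deposited KLK10 counts were not whole numbers in 4 of 12 libraries, among them every NC library (113.31, 109.9 and 85.4). How these values arose is not given in the sources used here.

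KLK11 (ENSG00000167757, chr19:51022216-51028039), a trypsin-like member with no overlapping gene in the annotation, also fell with shRNA1. It stood at 2.88, 2.90 and 4.31 CPM in NC but at 0.696, 0.436 and 0 CPM with shRNA1. With shRNA2 it was 1.40, 2.03 and 1.11 CPM, and with shRNA3 4.37, 3.64 and 0.645 CPM. Both the shRNA1 and the shRNA2 libraries were below all NC libraries, while shRNA3 libraries 1 and 2 were within or just above the NC range and library 3 was below it. The fall with shRNA1 was 8.72-fold (log2 -3.12, SE 0.84, edgeR adjusted p = 0.00801). The values for shRNA2 (log2 -1.15, SE 0.75, edgeR adjusted p = 0.223) and shRNA3 (log2 -0.24, SE 0.74, adjusted p = 0.806) did not pass. Without shRNA3 libraries 1 and 2, KLK11 was lower with shRNA3 by a log2 value of -2.34 (edgeR adjusted p = 0.0333, from the 1 library left), and without library 3 the value was 0.25 (adjusted p = 0.663).

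KLK13 (ENSG00000167759, chr19:51056206-51065114), a trypsin-like member known from the oral and oesophageal lining, had 4, 8 and 4 counts in NC, 1, 0 and 0 with shRNA1, 0 in each shRNA2 library, and 3, 0 and 0 with shRNA3. In NC it was present in every library, and in the shRNA groups it was at or near 0. By the summed counts KLK13 was 16.1-fold lower with shRNA1 (counting interval 2.50 to 674), at least 4.71-fold lower with shRNA2 (against a floor of 3 counts over the group) and 4.22-fold lower with shRNA3 (1.21 to 22.6). In an edgeR fit with no filter its adjusted p was 0.0771, 0.0304 and 0.334. KLK14 (ENSG00000129437, chr19:51077495-51084245), a trypsin-like activator of other members, had 12 counts over the NC libraries against 4, 0 and 2 for the hairpins. It was 3.01-fold lower with shRNA1 (0.914 to 12.8), at least 3.54-fold lower with shRNA2 and 4.75-fold lower with shRNA3 (1.06 to 43.7), and in the fit with no filter its edgeR adjusted p was 0.446, 0.0536 and 0.342. KLK9 (ENSG00000213022, chr19:51003111-51009634) had 17, 7, 9 and 13 counts in the 4 groups, between 0 and 0.706 CPM in NC, and its groups overlapped for every hairpin against NC. KLK12 (ENSG00000186474, chr19:51029092-51035230) had 0 counts in all 12 libraries, so its transcript was not detectable at this depth.

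The hairpins also differed from each other. KLK5 was lower with shRNA1 than with shRNA2 (log2 -3.80, SE 0.70, edgeR adjusted p = 0.00787; 15-fold by counts, interval 6.12 to 47.7). So were KLK6 (log2 -1.62, SE 0.34, adjusted p = 0.0125) and KLK10 (log2 -2.46, SE 0.25, adjusted p = 4.79e-04), while KLK7, KLK8 and KLK11 did not pass (adjusted p = 0.0896, 0.576 and 0.153). These 3 of 6 members called lower compare with 6.53% of all tested genes called lower and 5.78% called higher. Against shRNA3, 5 of 6 members were lower with shRNA1, where 30.0% of all tested genes were called, 18.1% lower and 11.9% higher. Those were KLK6 (log2 -1.64), KLK7 (-2.69), KLK8 (-1.85), KLK10 (-2.16) and KLK11 (-2.89), with edgeR adjusted p = 0.00844, 0.0379, 0.0164, 0.00152 and 0.0279. KLK5 did not pass between shRNA1 and shRNA3 (log2 -0.60, SE 1.03, edgeR adjusted p = 0.674), where the groups held 5 and 6 counts. Without shRNA3 libraries 1 and 2, KLK10 was the 1 member called between shRNA1 and the shRNA3 library left, where 8.10% of all tested genes were called. Between shRNA2 and shRNA3 the 1 call was KLK5, higher with shRNA2 (log2 3.20, SE 0.69, edgeR adjusted p = 0.0314), where 8.34% of all tested genes were called, 1.91% higher and 6.43% lower. In that comparison the values were -0.02 for KLK6 (SE 0.32), -0.25 for KLK7 (SE 0.69), -1.40 for KLK8 (SE 0.46), 0.30 for KLK10 (SE 0.23) and -0.91 for KLK11 (SE 0.76) on the log2 scale. A fit with the replicate number as a block gave no call here (KLK5 log2 3.23, edgeR adjusted p = 0.0515), although 2 members had an unadjusted p under 0.05, and the DESeq2 Wald test called 2 (KLK5 and KLK8).

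The changes did not follow the order of the genes along the cluster. From KLK5 towards KLK11 the log2 changes with shRNA1 were -10.03, -0.41 (KLK6, not called), -5.15, -3.63, -1.93 and -3.12. Of 39 other protein-coding genes within 500 kb of the cluster, 15 were tested, and 16 had at most 3 counts in any library. With shRNA1, 2 of the 15 rose and 8 fell, with shRNA2 4 rose and 3 fell, and with shRNA3 6 rose and 4 fell. The 15 include KLK1 and the readthrough gene over KLK8 and KLK9, which both fell with shRNA1 and of which KLK1 rose with shRNA3. Beside these counts stand the shares of 26.8% higher and 30.6% lower for shRNA1, 24.6% and 28.4% for shRNA2, and 26.4% and 27.6% for shRNA3 over all tested genes. The median log2 change of the 15 was -0.82, -0.27 and 0.32. The shRNA3 rises of KLK1, C19orf81, CLDND2 and VSIG10L were smaller without shRNA3 libraries 1 and 2. None of them was called in that fit, which leaves 1 shRNA3 library. On the log2 scale KLK1 was 0.16 in place of 1.57, and C19orf81 1.22 in place of 3.40. CLDND2 was 2.01 in place of 4.27, while VSIG10L was 0.80 in place of 0.87. CLDND2 reached the filter's level in shRNA libraries alone and so could enter the counts of the 15 as a rise only. LRRC4B, SHANK1 and ZNF175 fell with all 3 hairpins, and EMC10 and C19orf48P rose with all 3. SHANK1, a postsynaptic scaffold gene on the KLK5 side, was 9.80-, 26.3- and 6.58-fold lower. ZNF175, a zinc finger gene beyond KLK14, was 7.10-, 7.30- and 6.77-fold lower. The LRRC4B fall with shRNA3 (edgeR adjusted p = 0.0405) was lost in several alternatives (adjusted p = 0.130 without NC library 3). The EMC10 rise with shRNA1 gave an adjusted p of 0.0661 without NC library 3, and the C19orf48P rise with shRNA3 gave 0.0708 when counts were scaled by library totals only. CTU1, the first protein-coding gene beyond KLK14, stood at 27.0 ± 1.55 CPM in NC and was not called for any hairpin (edgeR adjusted p = 0.0966, 0.260 and 0.0836). The DESeq2 Wald test called CTU1 in opposite directions, lower with shRNA1 (log2 -0.33, adjusted p = 0.0357) and higher with shRNA3 (log2 0.31, adjusted p = 0.0476).

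**Figure D4:**
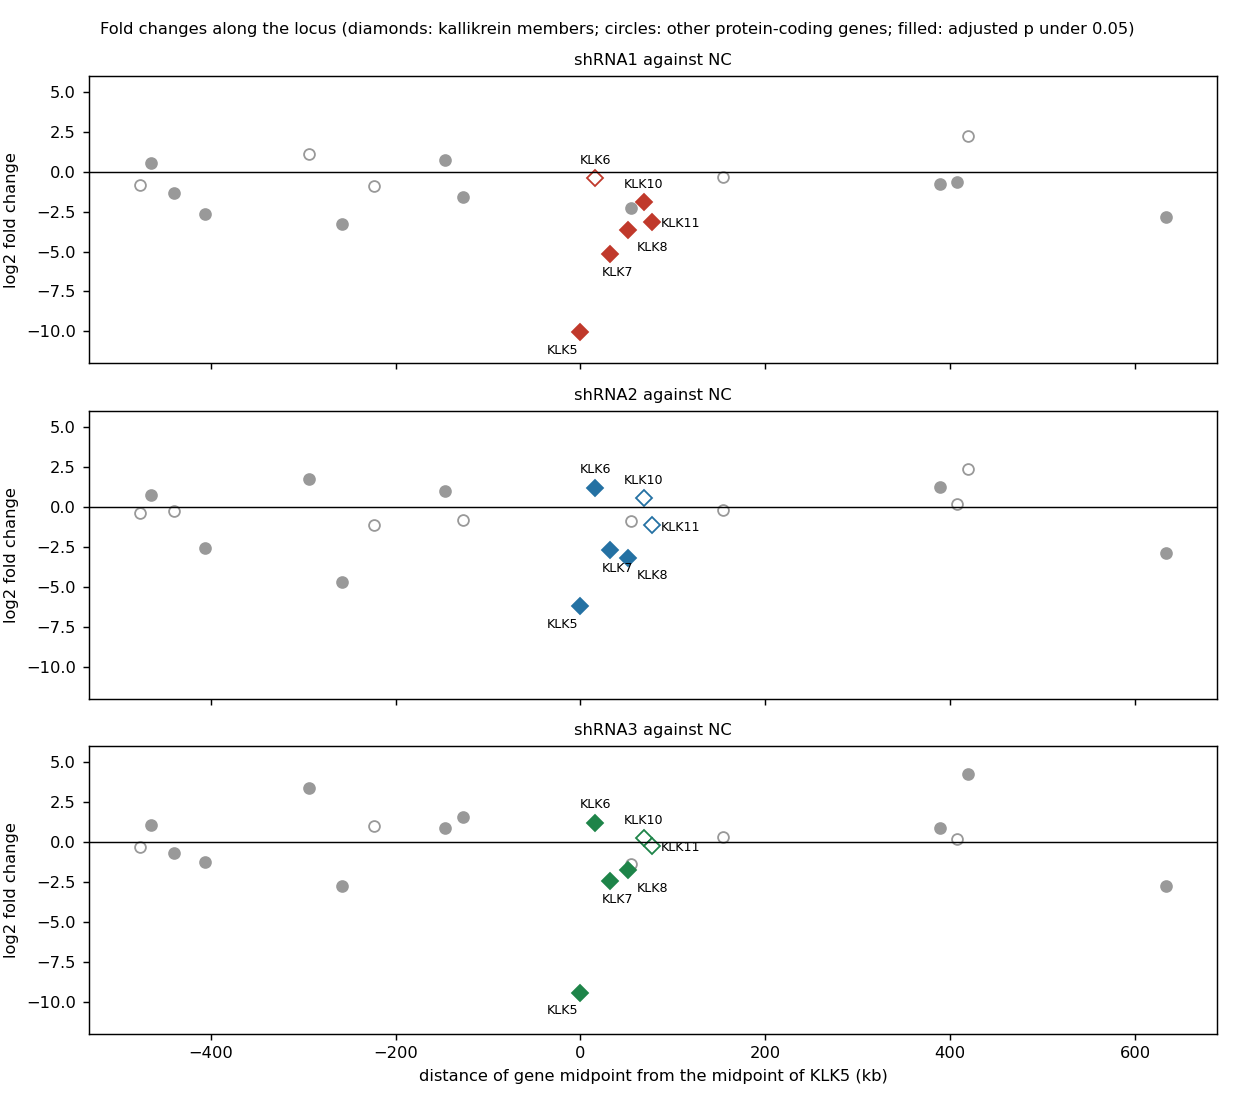
Log2 fold change against NC of the 6 tested kallikreins (diamonds) and of other tested protein-coding genes within 500 kb (circles), by the distance of the gene's midpoint from that of KLK5 in kb, filled where the adjusted p is under 0.05. KLK6 sits above its neighbours KLK5 and KLK7 for all 3 hairpins.

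Of the 5 remaining kallikreins of the locus, KLK1 alone was tested. KLK1, tissue kallikrein, which releases kinins, was 2.04 ± 0.0758 CPM in NC, 0.680 ± 0.0830 with shRNA1, 1.17 ± 0.192 with shRNA2 and 6.11 ± 3.35 with shRNA3. KLK1 fell with shRNA1 (edgeR adjusted p = 0.0109), did not pass with shRNA2 (adjusted p = 0.145) and rose with shRNA3 (adjusted p = 0.00811). That rise was lost without shRNA3 libraries 1 and 2 (log2 0.16, edgeR adjusted p = 0.736). KLK4, the enamel protease, had 38 counts in NC against 4, 0 and 8, which is 9.55-fold lower with shRNA1 (counting interval 3.44 to 36.8), at least 11.2-fold lower with shRNA2 and 3.76-fold lower with shRNA3 (1.73 to 9.33). KLK2, KLK3 and KLK15 had at most 3 counts in any library.

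Genes of kallikrein inhibitors moved in both directions. Of 11 listed, 6 were tested: with shRNA1 2 rose, 3 fell and 1 was not called, and with shRNA2 and shRNA3 alike 3 rose and 3 fell. The median log2 change was -1.64, -1.50 and -0.67. SPINK5, which encodes LEKTI, the inhibitor of KLK5, KLK7 and KLK14, rose from 0.601 ± 0.0428 CPM in NC to 7.32 ± 2.85, 22.4 ± 1.77 and 18.1 ± 3.35 CPM. That is 12.1-, 36.9- and 29.7-fold, with edgeR adjusted p = 5.24e-06, 5.73e-07 and 8.58e-07. PI3, which encodes the elastase inhibitor elafin, rose 20.2-, 11.8- and 32.0-fold from 0.617 ± 0.0674 CPM. Both were higher in every shRNA library than in every NC library. The 3 genes that fell with every hairpin encode serpins. SERPINA1 (alpha-1 antitrypsin) went from 32.9 ± 5.61 CPM to 2.77 ± 0.396, 1.21 ± 0.0238 and 5.56 ± 3.62 CPM. SERPINA3 (alpha-1 antichymotrypsin) had 355 counts in NC against 2, 0 and 1, or 178-fold (49.0 to 1479), at least 105-fold and 281-fold (50.1 to 11127) lower. SERPINA5 (protein C inhibitor) had 193 counts in NC against 0, 0 and 1, or at least 64.7-fold, at least 56.9-fold and 153-fold (27.1 to 6063) lower. SERPINA3 and SERPINA5 reached the filter's level in NC alone and so could enter the list's counts and medians as falls only. Among the other tested genes of the list, SERPINA1 alone had log2 changes below 0. The sign of the medians thus rests on SERPINA3 and SERPINA5.

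Among the 5 tested of 8 genes of proteases that act upstream of kallikreins and of their inhibitors, 4 fell with shRNA1, 3 with shRNA2 and 2 with shRNA3, and 1 rose with shRNA3. The medians were -3.29, -2.95 and -0.64. PLAU, which encodes urokinase, the activator of plasminogen, fell from 495 ± 26.6 CPM in the control cells to 8.85 ± 1.17, 5.23 ± 0.0778 and 13.3 ± 5.55 CPM, or 56.0-, 94.5- and 37.5-fold (edgeR adjusted p = 1.69e-07, 8.11e-08 and 1.96e-07). SPINT1, which encodes the matriptase inhibitor HAI-1, fell 9.79-, 7.71- and 3.82-fold from 314 ± 16.4 CPM. ST14, matriptase, was 178 ± 14.8 CPM in NC and fell to 62.9 ± 13.9 CPM with shRNA1 (edgeR adjusted p = 2.39e-04), with adjusted p = 0.109 and 0.305 for the other hairpins. PRSS8, prostasin, fell from 181 ± 4.65 CPM to 8.10 ± 4.46 and 7.38 ± 0.450 CPM with shRNA1 and shRNA2 (edgeR adjusted p = 7.74e-04 and 7.16e-04). With shRNA3 it ranged from 10.4 to 177 CPM (edgeR adjusted p = 0.470), and without shRNA3 libraries 1 and 2 its log2 change was -4.09 (adjusted p = 1.72e-04, from the 1 library left). The 1 gene called higher with shRNA3, SPINT2, lost that call without those libraries. MEP1A, MEP1B and PLG had at most 3 counts in any library.

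**Figure D5:**
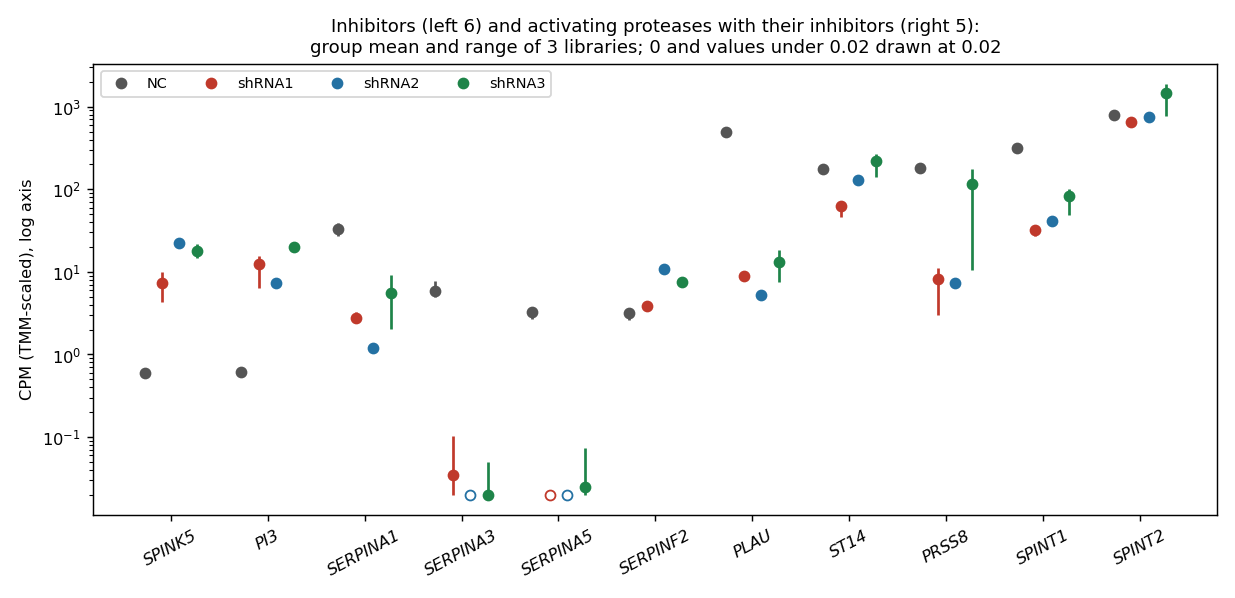
Levels of the 6 tested inhibitor genes (left) and the 5 tested genes of upstream proteases and their inhibitors (right), as the group mean with the range of 3 libraries in TMM-scaled CPM on a log axis, with values under 0.02 at 0.02 and groups at 0 counts as open symbols. SPINK5 and PI3 are higher with every hairpin, and SERPINA1, SERPINA3, SERPINA5, PLAU and SPINT1 are lower.

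Of 10 listed substrates and receptors, 6 were tested. With shRNA1 1 rose and 2 fell, with shRNA2 2 rose and 2 fell, and with shRNA3 1 rose and 2 fell, with medians of -0.54, -0.74 and 0.17. F2R, the thrombin receptor PAR1, fell from 255 ± 27.5 CPM in the control cells to 60.5 ± 27.8, 71.3 ± 5.38 and 32.9 ± 9.0 CPM (4.21-, 3.57- and 7.72-fold, edgeR adjusted p = 1.04e-04, 2.46e-04 and 1.18e-05). F2RL1, which encodes PAR2, the receptor that KLK5 and KLK14 can cut, was 202 ± 15.3 CPM in NC and fell to 99.2 ± 4.19 and 125 ± 20.7 CPM with shRNA2 and shRNA3 (edgeR adjusted p = 3.05e-04 and 0.00370). With shRNA1 F2RL1 was 178 ± 32.7 CPM (adjusted p = 0.353). CASP14, a caspase of keratinocyte terminal differentiation, had 0 counts in the NC libraries and 321, 339 and 410 counts with the hairpins, or at least 106-, 128- and 173-fold higher. CASP14 and FLG reached the filter's level in shRNA libraries alone. The corneodesmosomal genes DSG1, DSC1 and CDSN, whose products KLK5 can cut, were under the filter. DSG1 had 0 counts in NC and 10, 14 and 12 with the hairpins, DSC1 had 7 against 0, 0 and 1, and CDSN had 18 against 1, 7 and 19. The DSC1 and CDSN counts were uneven between libraries, and DSC1 ranged from 0 to 0.252 CPM in NC. CDSN ranged from 0 to 0.659 CPM in NC, 0 to 0.387 CPM with shRNA2 and 0 to 0.744 CPM with shRNA3.

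All 6 nuclear receptor genes examined were tested. With shRNA1 2 rose and 3 fell, with shRNA2 2 rose and 2 fell, and with shRNA3 3 rose and 2 fell, with medians of -0.18, 0.08 and 0.37. RARG was called lower with shRNA1 (log2 -0.52, edgeR adjusted p = 0.0481) and higher with shRNA3 (log2 0.94, adjusted p = 0.00241). The shRNA1 call of RARG was lost with no filter (edgeR adjusted p = 0.0823) and without any 1 library of NC or shRNA1 (adjusted p = 0.0836 to 0.117). ESR1 and PGR fell with every hairpin, but both reached the filter's level in NC alone and so entered the test through the group where they are high. ESR1, the oestrogen receptor, had 94 counts in NC against 20, 15 and 2, and PGR, the progesterone receptor, had 47 against 0 in each shRNA group, or at least 15.7-, 13.8- and 12.4-fold lower. NR3C1, the glucocorticoid receptor, rose 2.47-, 2.43- and 1.97-fold from 52.3 ± 5.80 CPM (edgeR adjusted p = 2.40e-05, 2.85e-05 and 2.01e-04). VDR, the vitamin D receptor, rose 1.93-, 1.49- and 1.60-fold (adjusted p = 0.00301, 0.0415 and 0.0199), but its calls for shRNA2 and shRNA3 were lost when counts were scaled by library totals only (adjusted p = 0.242 and 0.279). The shRNA2 call was also lost with DESeq2 size factors, with the replicate number as a block (adjusted p = 0.0629) and without any 1 library of NC or shRNA2 (adjusted p = 0.0696 to 0.116), and the shRNA3 call with only the groups compared (0.0520) and without NC library 1 or 3 (0.0692 and 0.0601).

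The genes most like KLK5 over the 12 libraries were sought among 17526 other tested genes, by the root mean square difference of log2(CPM + 0.5) after centring each gene on its own mean. The nearest 5 were PROM2 (0.496), MAGEA3 (0.573), NOTCH3 (0.618), PCDHGC3 (0.657) and SLFN11 (0.673), where the median over all genes was 3.03 and 95 genes lay under 1. PROM2, which encodes an epithelial membrane protein of the prominin family, stood at 240 ± 12.1 CPM in NC but at 1.39 ± 0.253, 6.53 ± 1.75 and 2.80 ± 1.39 CPM with the hairpins. NOTCH3, a receptor gene of the Notch pathway, stood at 272 ± 27.4 CPM in NC but at 1.08 ± 0.572, 1.38 ± 0.171 and 0.805 ± 0.194 CPM. SLFN11 was 48.4 ± 1.86 CPM in NC with 0 CPM in all 9 shRNA libraries. No other member of the family was that close: the difference from KLK5 was 2.06 for KLK8, 2.25 for KLK7, 2.60 for KLK11, 2.89 for KLK10 and 3.25 for KLK6. With 0.5 added to the CPM, the possible fall of a gene is limited by its level in NC. All other members were far below KLK5 in NC, which limits how close they could come. Their differences from KLK5 therefore cannot show whether they were regulated alike. The ranking is a description of 12 libraries in which many genes separate NC from the hairpins.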

How the data were processed

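RNA was sequenced from 12 libraries of SCC-15 cells in 4 groups of 3, mapped by sample title (columns not matched: 0). The values the authors deposited are unscaled estimated counts, 1 per gene and library. HISAT2, HTSeq 0.11.2 and the build GRCh38 are named in the submitters' processing notes, with no role. Of the deposited values 13.8% are not whole, and how they arose, the annotation and the use of strand are not given in the sources used here. The table lists 61044 IDs, of which 27430 are at 0 in all libraries, 380 are not Ensembl IDs and 60463 have a symbol in a table of gene names. Positions and exon lengths come from GENCODE 29 on GRCh38, and promoters from RefSeq on GRCh38.p14.

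Counts were rounded, scaled by TMM (factors 0.771 to 1.11) and filtered by filterByExpr (minimum count 10, minimum total 15). All 17532 genes left were tested two-sided with edgeR 4.0.16 (R 4.3.3; robust quasi-likelihood F test, 1 fit over 12 libraries, 8 residual degrees of freedom, common biological coefficient of variation 0.289). P-values were Benjamini-Hochberg adjusted, with a threshold of 0.05. The standard error is the log2 fold change divided by the square root of F. Ratios of summed counts have exact (Clopper-Pearson) 95% intervals, and a group at 0 counts was set to 3 counts over the group. The script was tested on simulated data. Alternatives were DESeq2 1.42.0 (size factors, Wald test), library totals, no filter, only the groups compared, stricter thresholds, a replicate block, shRNA3 without libraries 1 and 2, and each library left out.

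The members and gene lists were chosen with earlier results of these data known, as were the alternatives. All 10 members are named. Some listed genes are not reported here. Of a partner or neighbour list, the genes named with values are those called in 1 direction with all 3 hairpins, and others are named where a call, a count or a role needed it, chosen after their values were seen. Titles share replicate numbers across groups, and whether these pair libraries was checked by the correlation of their deviations from the group means. Over 18 same-numbered pairs it was -0.00856 on average (-0.0868 to 0.0777), against 0.00361 for the other pairs, so the numbers do not pair the libraries.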

Additional observations from a re-analysis of the deposited data

Results flagged for a closer look

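The values of 2 members against NC had opposite signs between hairpins, and the difference between hairpins passed the test, although neither member passed against NC in both directions. KLK6 was 2.87 ± 0.297 CPM (SD, n = 3) in NC, 2.15 ± 0.395 with shRNA1 (edgeR adjusted p = 0.310 against NC), 6.65 ± 0.833 with shRNA2 and 6.76 ± 2.99 with shRNA3. Between shRNA1 and shRNA2 its log2 difference was -1.62 (edgeR adjusted p = 0.0125), and between shRNA1 and shRNA3 it was -1.64 (adjusted p = 0.00844), with every shRNA1 library below every library of the other 2 groups. Without shRNA3 libraries 1 and 2 the latter was -0.80, from the 1 shRNA3 library left. The KLK6 difference between shRNA1 and shRNA2 did not pass without shRNA1 library 2 (edgeR adjusted p = 0.0525) or without shRNA2 library 1 (adjusted p = 0.0571).

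KLK10 was 5.14 ± 0.735 CPM (SD, n = 3) in NC, 1.34 ± 0.138 with shRNA1, 7.43 ± 0.631 with shRNA2 and 6.03 ± 1.17 with shRNA3. The log2 difference was -2.46 between shRNA1 and shRNA2 (edgeR adjusted p = 4.79e-04) and -2.16 between shRNA1 and shRNA3 (adjusted p = 0.00152), again with no overlap of libraries. The higher KLK10 values with shRNA2 and shRNA3 did not themselves pass against NC, and that for shRNA3 was -0.14 when counts were scaled by library totals only.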

How the results depend on the processing

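Against NC, 229 of 234 alternative values of single members kept their side of the threshold, and between hairpins 196 of 230 did. The sign turned in 3 of the 234 (KLK10 and KLK11 with shRNA3) and 15 of the 230, with none of these values called. Leaving out each library kept 5 calls for shRNA1 and 4 each for shRNA2 and shRNA3, with 2 to 3 calls between shRNA1 and shRNA2, 2 to 5 between shRNA1 and shRNA3 and 0 to 3 between shRNA2 and shRNA3. Between shRNA1 and shRNA3, 2 calls (KLK6 and KLK10) were left without shRNA1 library 2 or without shRNA3 library 1 or 2 (9.80% to 10.3% of all genes). Between shRNA2 and shRNA3, 0 were left without any 1 library of shRNA2 or without shRNA3 library 2, and 3 were called without shRNA3 library 3. Over all genes, 0.00% were called in each of the former fits and 59.2% in the latter. Without shRNA3 libraries 1 and 2 together, 5 members were called between shRNA1 and shRNA2 (36.8% of all genes) and 1 between shRNA1 and shRNA3 (8.10%). Fitting only the groups compared gave 0 calls both between shRNA1 and shRNA3 (4 members at an unadjusted p under 0.05) and between shRNA2 and shRNA3 (1 member), where 0.00% of all genes were called; it also called 6 members for shRNA2 against NC, where 79.2% of all genes were called, adding KLK10 as higher and KLK11 as lower. A threshold of 0.01 left 2 calls between shRNA1 and shRNA3 and 0 between shRNA2 and shRNA3, where the DESeq2 Wald test made 2. The cause was not tested.

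With the replicate number as a block the calls were 5, 4 and 4 against NC, 3 and 4 for shRNA1 against shRNA2 and shRNA3, where KLK7 was lost (edgeR adjusted p = 0.0604), and 0 between shRNA2 and shRNA3 (2 members at an unadjusted p under 0.05, with 2.16% of all genes called). Scaling by library totals only moved the median of all genes to -0.10, -0.18 and -0.35 against NC. Of 1479 alternative values of partner and neighbour genes 1358 kept their call. Where the main or the alternative value was called, 3 changed sign, all for shRNA3 against NC. These were FLG (-2.35 without shRNA3 library 3, up to 1.03 without library 2), and IL1B (-1.56) and SPINT2 (-0.00418) without libraries 1 and 2. Sign changes where neither value was called are not in this count of partner and neighbour genes. A transcript at a few counts, such as KLK9, KLK13 or KLK14, is limited by depth.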
